A study of Arabidopsis thaliana with 6 samples.

Results

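SWEETs are a family of plant sugar uniporters, membrane proteins that let sucrose, glucose or fructose cross the plasma membrane or the vacuole membrane down a concentration gradient. In Arabidopsis they fall into 4 clades. Members of clades I and II carry mainly hexoses, members of clade III carry mainly sucrose, and members of clade IV sit in the vacuole membrane and carry mainly fructose. Some clade III members also move the hormone gibberellin. Sucrose made in leaves leaves the phloem parenchyma through clade III SWEETs before proton-coupled symporters load it into the phloem, and other members serve nectaries, pollen, seeds and roots.

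The members were taken as every gene whose symbol starts with SWEET and which is the sole gene of a probe set on the GeneChip Arabidopsis ATH1 array. This gave 15 genes out of 13350 genes, named alone by 13513 probe sets, among 22746 probe sets tested in all. Of the 15, 14 are SWEET transporters, and the other is SWEETIE, a protein known for its part in trehalose and starch metabolism, which shares the letters of the name but is not a member of the transporter family. The family has 17 genes in Arabidopsis. Beside the 14, SWEET5 is on the array under the symbol AtVEX1 and SWEET15 under the symbol SAG29. In the platform annotation SWEET12 has no probe set that names it alone, and it was not analysed here. That annotation lists no gene for 8730 of the probe sets tested, so such a gap does not show that the array lacks the gene. No probe set names a SWEET together with another gene.

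RNA was compared between 3 samples of p53-transgenic (35S:P53) seedlings and 3 samples of wild type (WT, Col-0) seedlings, all 10 days old, from independent experiments under long days. The transgene encodes the human tumour suppressor p53, a transcription factor with no plant ortholog in sequence, under the constitutive cauliflower mosaic virus 35S promoter, so it is not confined to 1 tissue. The sources used here do not name the transgenic line that gave the RNA, and the array has no probe set listed for the human transgene. The purpose was to see how human p53 influences plant gene expression.

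Each value is a log expression value, taken as log2, from which the median of that probe set over the 6 arrays had been subtracted by the authors. A value of 0 is therefore the middle of the 6 arrays, and the values carry no expression level and no order of levels between genes. Where the genotypes do not overlap, the arrays on each side of the middle have equal and opposite values by this construction. The medians of the arrays lay between -0.02 and 0.01. Fold changes are given as p53 minus WT with limma's standard error (SE), 95% confidence interval (CI) and a p adjusted over the 22746 probe sets, and a gene is said to have risen or fallen where that adjusted p was under 0.05. The samples are whole seedlings, so fewer cells of a type and less RNA per cell cannot be told apart. The seedling label could not be checked from levels. Of 13 phloem, xylem, root hair and leaf photosynthesis markers, only EXPA7, a root hair expansin, has a probe set that names it alone in the annotation. EXPA7 changed by -0.02 on the log2 scale (adjusted p = 0.947).

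Of the 14 SWEETs, 4 changed (28.6%), against 15.4% of all probe sets. SWEET13 and SWEET4 were lower in p53-transgenic seedlings, which is 14.3% of the SWEETs beside 8.84% of all probe sets. SWEET2 and SWEET11 were higher, again 14.3%, beside 6.55% of all probe sets. With 4 genes these shares are counts only. The other 10 SWEETs did not pass, nor did AtVEX1, SAG29 or SWEETIE, so with both other symbols included 4 of 16 family genes (25%) changed. The genotypes did not overlap for 5 of the 14 SWEETs (35.7%), close to the 34.3% of all probe sets. At an unadjusted p under 0.05 with more than a 2-fold change, 3 SWEETs passed (21.4%), against 5.88% of all probe sets. They are SWEET13, SWEET4 and SWEET2. With the methods' t-test at the same thresholds, also without adjustment, the same 3 passed, against 5.10% of all probe sets. The median log2 fold change was 0.02 for the 14 SWEETs and -0.01 for all probe sets. The median size of the change, whatever its sign, was 0.11 and 0.16.

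**Figure D1:**
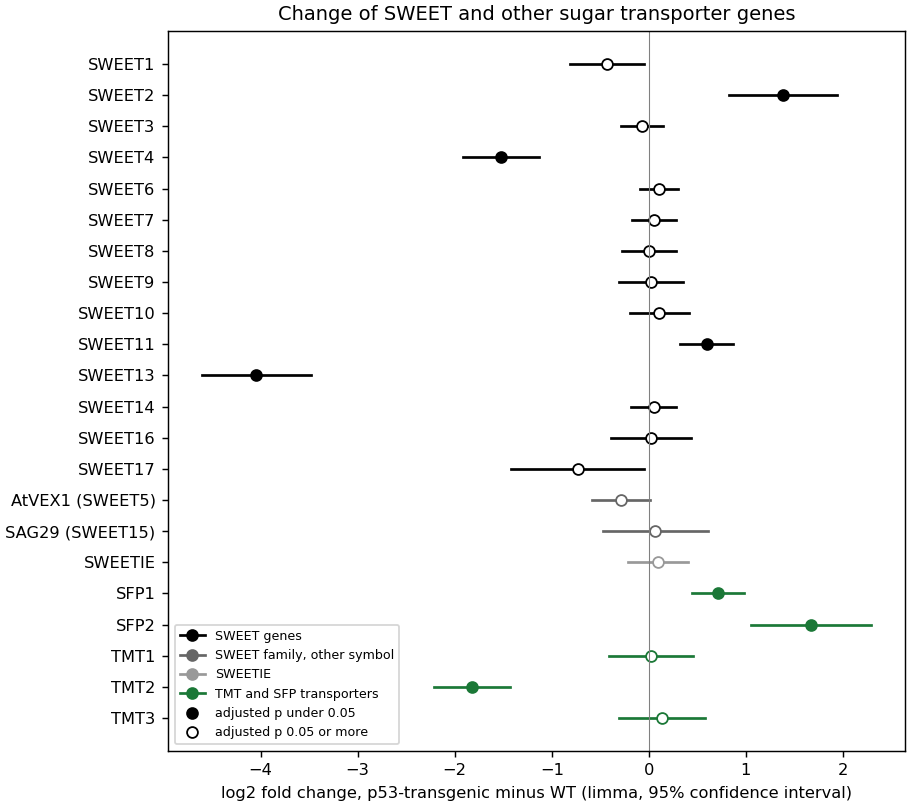
Log2 fold change, p53-transgenic minus WT, with limma's 95% confidence interval, for the 14 SWEETs, both family genes under another symbol, SWEETIE and 5 other sugar transporters. Filled points passed an adjusted p of 0.05. SWEET13 stands at -4.05 and SWEET4 at -1.53, and SWEET2 and SWEET11 lie above 0 at 1.38 and 0.59.

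SWEET13 (AT5G50800, chromosome 5), a clade III sucrose transporter that also moves gibberellin, had the largest change of the family. Its centred log2 values were -1.69, -1.74 and -1.98 in the p53-transgenic arrays of replicates 1, 2 and 3, against 2.44, 1.69 and 2.61 in the WT arrays. All 3 p53-transgenic arrays lay far below all 3 WT arrays, and the p53-transgenic arrays were within 0.29 of each other. The means were -1.80 ± 0.15 in p53-transgenic seedlings and 2.24 ± 0.49 in WT (SD, n = 3 each). The log2 fold change was -4.05 (SE 0.24, 95% CI -4.61 to -3.49, adjusted p = 0.000156), which is 16.5-fold lower (95% CI 11.2 to 24.4). Only 2 of the 22746 probe sets had a lower log2 fold change. Taken by replicate number, the difference was -4.13, -3.43 and -4.58, so it had the same sign in 3 of 3 pairs.

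The other clade III genes that were read did not follow SWEET13. Whether those with changes near 0 were detected cannot be read from centred values. SWEET11 (AT3G48740, chromosome 3), which exports sucrose from phloem parenchyma in leaves, was higher in p53-transgenic seedlings. Its values were 0.17, 0.39 and 0.23 in the p53-transgenic arrays, against -0.17, -0.51 and -0.30 in the WT arrays. The groups did not overlap, with the nearest arrays 0.35 apart. The log2 fold change was 0.59 (SE 0.12, 95% CI 0.32 to 0.87, adjusted p = 0.0167), or 1.51-fold higher (95% CI 1.25 to 1.83). The call was lost without WT replicate 3 (log2 fold change 0.61, adjusted p = 0.0660) and with the methods' t-test once adjusted (adjusted p = 0.0755).

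SWEET9, the nectary sucrose exporter, had a log2 fold change of 0.02 (95% CI -0.31 to 0.35, adjusted p = 0.95). SWEET10 had values of -0.18, 0.08 and 0.28 in the p53-transgenic arrays, against 0.01, -0.01 and -0.13 in the WT arrays, and a log2 fold change of 0.11 (95% CI -0.20 to 0.41, adjusted p = 0.662). The WT arrays of SWEET10 lay inside the range of the p53-transgenic arrays. SWEET14, which in Arabidopsis moves gibberellin as SWEET13 does, had values of -0.06, 0.02 and 0.18 in the p53-transgenic arrays, against -0.02, -0.07 and 0.09 in the WT arrays. Its log2 fold change was 0.05 (95% CI -0.18 to 0.28, adjusted p = 0.809), and its 6 arrays spanned 0.25, where those of SWEET13 spanned 4.58. SAG29, the senescence-associated SWEET15, had values of -0.07, -0.27 and 0.65 in the p53-transgenic arrays, against -0.04, 0.11 and 0.04 in the WT arrays. p53-transgenic replicate 3 stood above all other arrays for SAG29, and the log2 fold change was 0.07 (95% CI -0.47 to 0.61, adjusted p = 0.893).

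**Figure D2:**
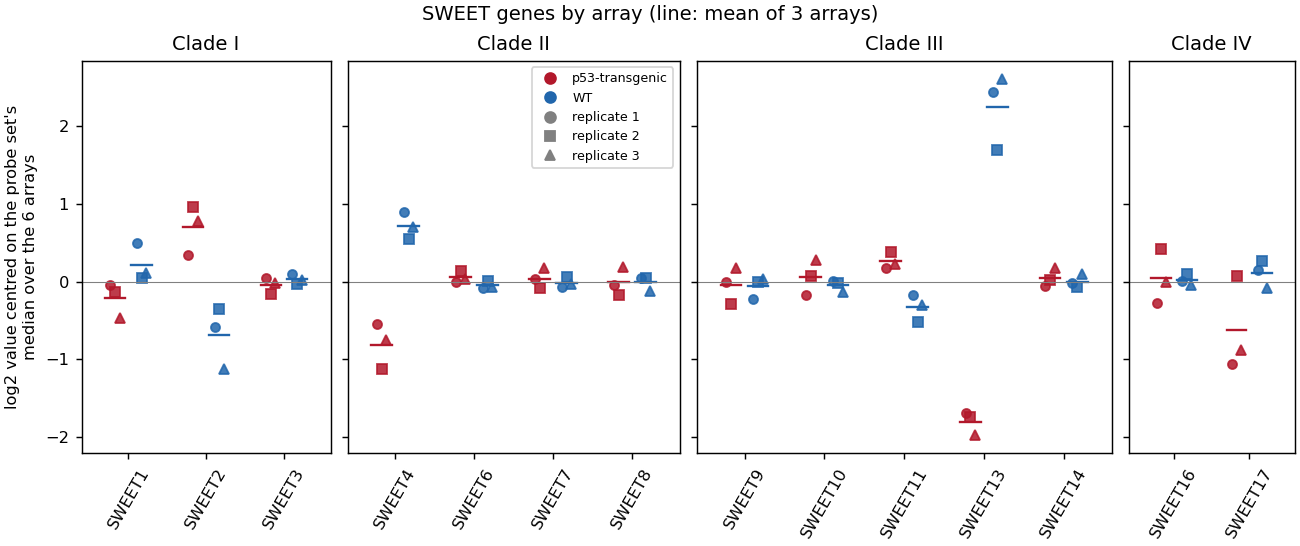
Centred log2 value of each of the 14 SWEETs in every array, by clade, with p53-transgenic arrays left of WT arrays, a marker shape for each replicate number and a line at the mean of 3 arrays. In clade III the SWEET13 arrays lie near -1.80 in p53-transgenic seedlings and 2.24 in WT, while SWEET9, SWEET10 and SWEET14 overlap around 0.

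In clade II, SWEET4 was lower, and SWEET6, SWEET7, SWEET8 and AtVEX1 did not pass. SWEET4 (AT3G28007, chromosome 3) is a plasma membrane hexose transporter found along the veins. Its values were -0.55, -1.13 and -0.75 in the p53-transgenic arrays, against 0.89, 0.55 and 0.71 in the WT arrays. Every p53-transgenic array lay below every WT array. The means were -0.81 ± 0.29 in p53-transgenic seedlings and 0.72 ± 0.17 in WT (SD, n = 3 each). The log2 fold change was -1.53 (SE 0.17, 95% CI -1.92 to -1.13, adjusted p = 0.0020), which is 2.88-fold lower (95% CI 2.19 to 3.78). By replicate number the difference was -1.44, -1.67 and -1.46.

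Of the other clade II genes, SWEET6, SWEET7 and SWEET8 had changes near 0. SWEET8, needed for the pollen wall, had a log2 fold change of 0.00 (95% CI -0.27 to 0.27, adjusted p = 0.998). SWEET6 and SWEET7 had log2 fold changes of 0.10 (95% CI -0.09 to 0.30, adjusted p = 0.472) and 0.05 (95% CI -0.18 to 0.28, adjusted p = 0.795). AtVEX1, the SWEET5 of the pollen vegetative cell, had values of -0.19, 0.02 and -0.33 in the p53-transgenic arrays, against 0.28, 0.12 and -0.02 in the WT arrays. The highest p53-transgenic array lay above the lowest WT array, and the log2 fold change of -0.29 did not pass (95% CI -0.59 to 0.01, adjusted p = 0.182).

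In clade I, SWEET2 was higher in p53-transgenic seedlings. SWEET2 (AT3G14770, chromosome 3) is a vacuolar glucose transporter known from roots. Its values were 0.35, 0.96 and 0.79 in the p53-transgenic arrays, against -0.58, -0.35 and -1.12 in the WT arrays. The groups did not overlap, and the arrays of each genotype spread more widely than for SWEET11, with means of 0.70 ± 0.32 in p53-transgenic seedlings and -0.68 ± 0.40 in WT (SD, n = 3 each). The log2 fold change was 1.38 (SE 0.24, 95% CI 0.82 to 1.94, adjusted p = 0.0105), or 2.61-fold higher (95% CI 1.77 to 3.84). By replicate number the difference was 0.93, 1.31 and 1.91. The methods' t-test, adjusted over all probe sets, gave 0.0840.

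SWEET1, a plasma membrane glucose uniporter of the same clade, had values of -0.04, -0.13 and -0.46 in the p53-transgenic arrays, against 0.50, 0.04 and 0.12 in the WT arrays. The groups did not overlap, but the nearest arrays were 0.08 apart and the log2 fold change of -0.43 did not pass (SE 0.16, 95% CI -0.82 to -0.04, adjusted p = 0.132). SWEET3 had a log2 fold change of -0.07 (95% CI -0.29 to 0.14, adjusted p = 0.669).

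Clade IV holds SWEET16 and SWEET17, both in the vacuole membrane, and neither passed. SWEET17 (AT4G15920, chromosome 4), which moves fructose in and out of the vacuole, had values of -1.06, 0.07 and -0.88 in the p53-transgenic arrays, against 0.15, 0.26 and -0.07 in the WT arrays. p53-transgenic replicate 2 lay among the WT arrays and apart from the other 2 of its genotype. With it the log2 fold change was -0.73 (SE 0.29, 95% CI -1.42 to -0.05, adjusted p = 0.146). Without p53-transgenic replicate 2 it was -1.08 (adjusted p = 0.00301). SWEET16 had values of -0.28, 0.42 and -0.01 in the p53-transgenic arrays, against 0.01, 0.10 and -0.04 in the WT arrays. The p53-transgenic arrays lay on both sides of the WT arrays, with replicate 2 highest, and the log2 fold change was 0.02 (95% CI -0.39 to 0.43, adjusted p = 0.964).

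SWEETIE had values of 0.02, 0.33 and -0.13 in the p53-transgenic arrays, against 0.05, -0.02 and -0.09 in the WT arrays, and a log2 fold change of 0.10 (95% CI -0.21 to 0.40, adjusted p = 0.702). Of the 14 SWEETs, 8 had a whole 95% interval within 1.5-fold in either direction. They are SWEET3, SWEET6, SWEET7, SWEET8, SWEET9, SWEET10, SWEET14 and SWEET16. The range over the 6 arrays ran from 0.22 for SWEET6 to 4.58 for SWEET13, and 7 of the 14 SWEETs had a range below the median of all probe sets, 0.46. Without expression levels, a gene whose arrays hardly differ may be one with little signal, and detection could not be read from these values.

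**Figure D3:**
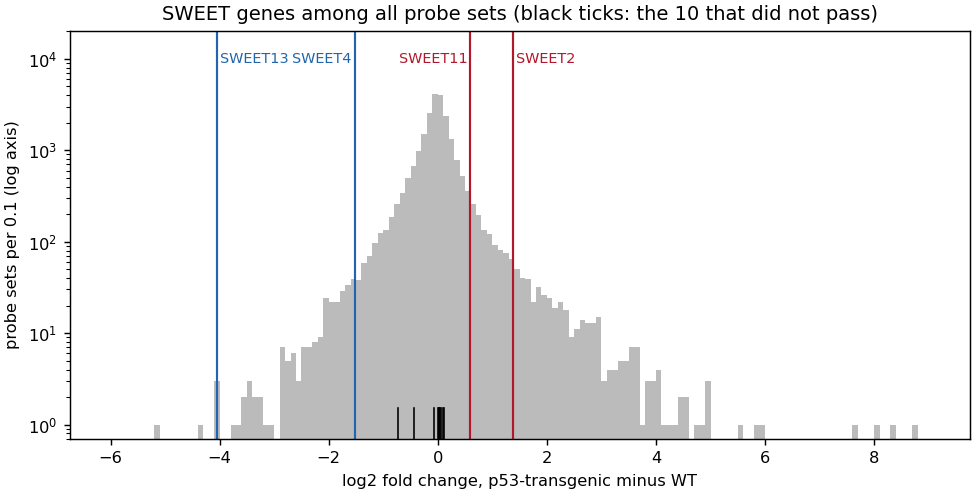
Number of probe sets by log2 fold change, p53-transgenic minus WT, in bins of 0.1 with a log vertical axis, for all 22746 probe sets. The lines mark the 4 SWEETs that changed and the short ticks the 10 that did not pass. SWEET13 lies at the far left, with 2 probe sets below it.

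To set a changed gene against an unchanged one, the difference between 2 members was taken within each array and compared between genotypes. All 105 pairs of the 15 members were compared. AtVEX1, of clade II, and SAG29, of clade III, are not among these 15, so no pair with them was taken. With 3 arrays against 3 the exact two-sided permutation test cannot go below p = 0.1, so no pair could reach 0.05, and after adjustment over the 105 pairs the smallest p was 0.181. The differences did not overlap between genotypes in 58 pairs (55.2%), and in 14 of 20 pairs of the same clade (70.0%). All 14 had the smallest p of 0.1. They include every same-clade pair taken that holds SWEET13, SWEET4, SWEET2 or SWEET11. Against a gene that hardly changed, such a difference follows largely from the change of the member itself. These shares therefore mostly restate the calls, and no share over pairs of all probe sets was computed beside them.

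SWEET13 minus SWEET14 changed by -4.09 (SE 0.29), SWEET13 minus SWEET9 by -4.07 (SE 0.37) and SWEET13 minus SWEET11 by -4.64 (SE 0.23) between p53-transgenic and WT arrays. SWEET13 and SWEET10 stand next to each other in the order of protein-coding genes on chromosome 5, and within an array SWEET13 minus SWEET10 was -1.51, -1.82 and -2.26 in p53-transgenic seedlings, against 2.42, 1.70 and 2.74 in WT (difference -4.15, SE 0.38). The neighbours thus differed in their change by about the whole change of SWEET13. SWEET4 minus SWEET8 changed by -1.53 (SE 0.18), SWEET4 minus SWEET6 by -1.63 (SE 0.25) and SWEET4 minus SWEET7 by -1.58 (SE 0.19). SWEET2 minus SWEET3 changed by 1.46 (SE 0.34), and SWEET2 minus SWEET1 by 1.81 (SE 0.37).

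SWEET11 differed in its change from the clade III members that did not pass by 0.57 (SE 0.25) from SWEET9, 0.49 (SE 0.17) from SWEET10 and 0.55 (SE 0.13) from SWEET14. No pair with SAG29 was taken. The 2 other pairs without overlap were SWEET1 minus SWEET3, at -0.36 (SE 0.18), and SWEET17 minus SWEET16. SWEET17 minus SWEET16 was -0.78, -0.34 and -0.87 in the p53-transgenic arrays, against 0.14, 0.16 and -0.04 in the WT arrays (difference -0.75, SE 0.18). In replicate 2 of the p53-transgenic seedlings both vacuolar genes were high within their genotype, so the difference between them did not overlap although SWEET17 itself did.

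**Figure D4:**
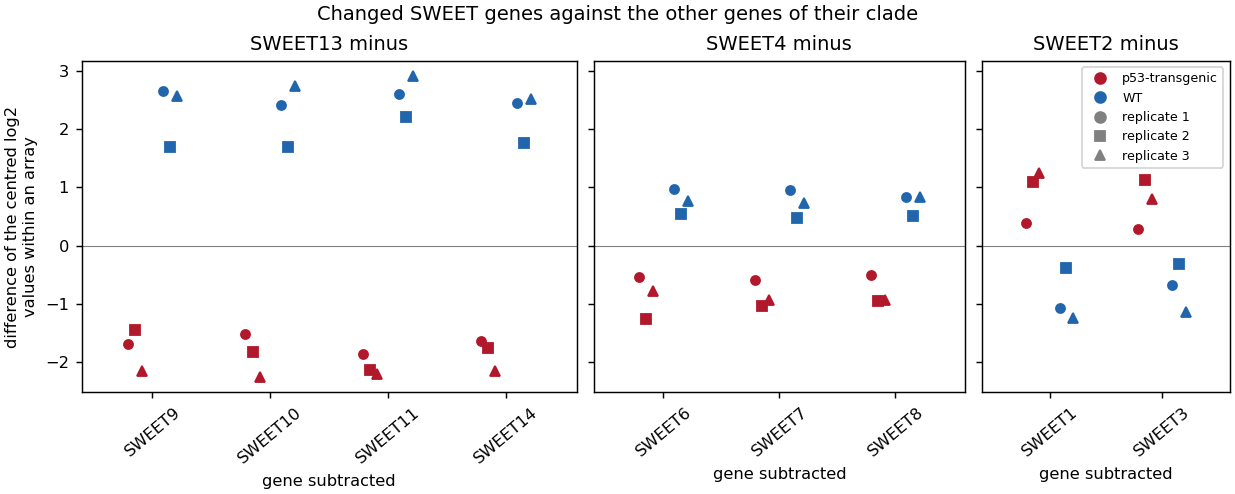
Difference of the centred log2 values between SWEET13, SWEET4 or SWEET2 and each other member of its clade, within each array. AtVEX1 and SAG29 are not drawn. The p53-transgenic arrays stand left of WT arrays, with a marker shape for each replicate number. The genotypes do not overlap in any of the pairs drawn. SWEET13 minus SWEET10 is -1.51 to -2.26 in p53-transgenic arrays and 1.70 to 2.74 in WT arrays.

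Among all 13513 probe sets that name 1 gene, likeness to SWEET13 and SWEET4 was measured as the root mean square difference of the centred values over the 6 arrays. The 5 closest to SWEET13 were AT1G22160 (0.36), AT1G51090 (0.43), GLC (0.49), COR15A (0.55) and AT1G80130 (0.59). COR15A is a chloroplast protein induced by cold and drought. Its values were -1.76, -2.08 and -2.79 in the p53-transgenic arrays, against 1.82, 1.76 and 1.81 in the WT arrays, and its log2 fold change was -4.00, next to -4.05 for SWEET13. The other 4 had log2 fold changes of -3.40 (AT1G22160), -3.73 (AT1G51090), -3.44 (GLC) and -5.19 (AT1G80130).

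The 5 closest to SWEET4 were AT3G55760 (0.15), TET3 (0.17), AT5G43150 (0.18), AT5G61520 (0.19) and COR47 (0.21). COR47 is a dehydrin induced by cold, and TET3 is a tetraspanin. Their log2 fold changes were -1.67 (AT3G55760), -1.57 (TET3), -1.66 (AT5G43150), -1.35 (AT5G61520) and -1.67 (COR47), beside -1.53 for SWEET4. All 10 genes were chosen by their values, so these changes are a description.

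**Figure D5:**
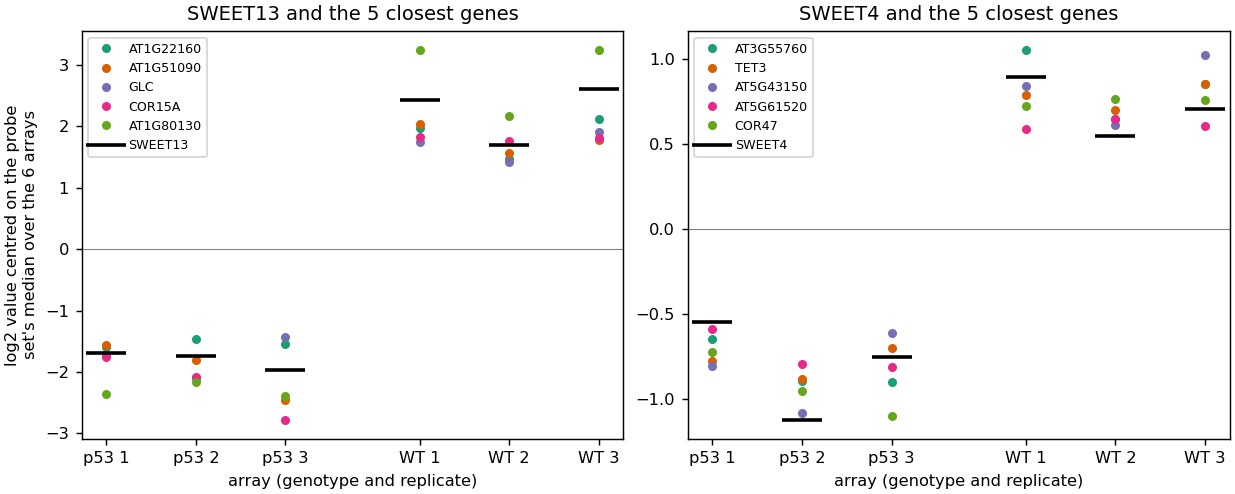
Centred log2 value in each of the 6 arrays for SWEET13 and SWEET4 (black bars) and for the 5 genes closest to each (points), with p53-transgenic arrays left of WT arrays. All points lie below 0 in the p53-transgenic arrays and above 0 in the WT arrays, as the bars do, but they depart from the bars within a genotype. COR15A is at -2.79 in p53-transgenic replicate 3, where SWEET13 is at -1.98.

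Other transporters of the sugar route were read from lists of genes. Of 28 hexose and polyol transporters listed, 5 have a probe set under a symbol found in the reference, of which 2 were higher, 1 was lower and 2 did not pass, with a median log2 fold change of 0.14. The 3 that changed are 60% of the 5, against 15.4% of all probe sets. With 5 genes this share is a count only, and the 2 higher ones, SFP1 and SFP2, are neighbouring genes. A further 4 loci of the list have a probe set, but the reference does not give them the listed symbol. Counted by locus alone, 9 could be read, of which 2 were higher, 2 were lower and 5 did not pass (44.4% changed, median log2 fold change 0.02). The lower one added is AT5G61520, also among the 5 closest to SWEET4, at -1.35 (adjusted p = 0.000307). TMT2, a transporter that loads sugars into the vacuole against proton exchange, was lower. Its values were -0.71, -0.88 and -1.31 in the p53-transgenic arrays, against 0.97, 0.71 and 0.89 in the WT arrays, and its log2 fold change was -1.83 (SE 0.17, adjusted p = 0.000927), or 3.55-fold lower. The genotypes did not overlap, and the change lay between those of SWEET4 and SWEET13. The other tonoplast monosaccharide transporters did not pass, with log2 fold changes of 0.02 for TMT1 (adjusted p = 0.958) and 0.14 for TMT3 (adjusted p = 0.708).

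SFP1 and SFP2, neighbouring genes on chromosome 5 that encode sugar-porter family proteins, were both higher. SFP2 had values of 0.85, 1.55 and 0.50 in the p53-transgenic arrays, against -0.79, -0.50 and -0.84 in the WT arrays. SFP1 had values of 0.26, 0.56 and 0.28 in the p53-transgenic arrays, against -0.26, -0.31 and -0.46 in the WT arrays. Neither gene's groups overlapped, and replicate 2 was the highest p53-transgenic array for both. The log2 fold changes were 1.67 for SFP2 (SE 0.26, adjusted p = 0.00756) and 0.71 for SFP1 (SE 0.11, adjusted p = 0.00806). The methods' t-test, adjusted over all probe sets, gave 0.0739 for SFP2 and 0.0521 for SFP1.

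In the platform annotation no sucrose symporter of 9 listed, no trehalose gene of 14 and no sugar starvation gene of 6 is named alone. Probe sets for them may be among the 8730 with no gene listed, and the proton-coupled step after SWEET11 could not be read. Of 18 genes of sucrose synthesis and cleavage, 2 have a probe set, neither under a symbol found in the reference, so they were not read. SWEET13 and SWEET14 also move gibberellin, and of 15 gibberellin genes listed 4 could be read, none of which passed (median log2 fold change -0.12). The receptors GID1A, GID1B and GID1C had log2 fold changes of -0.26 (adjusted p = 0.217), 0.68 (adjusted p = 0.335) and 0.02 (adjusted p = 0.930). AT1G68570, a gibberellin transporter of another family, had -0.57 (adjusted p = 0.161, and 0.0243 with the replicate number as a block). Of 7 senescence genes listed 2 could be read, the regulator WRKY53 at -0.90 (adjusted p = 0.232) and the lipase-like SAG101 at 0.38 (adjusted p = 0.574), and neither passed. The clock gene GI had -0.26 (adjusted p = 0.271). Without p53-transgenic replicate 2, GID1A, GID1B and SAG101 would have passed, at -0.38, 1.12 and 0.81, and without p53-transgenic replicate 3 WRKY53 would have, at -1.43. AT1G68570 would also have passed without WT replicate 2, at -0.80. Of genes with sugar transport words in their reference name, only SWI3A (-0.06) and CHB3 (0.14), chromatin remodelling genes named after a yeast sucrose phenotype, have a probe set, and neither passed.

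The protein-coding genes on each side of a member were read as a check on position. Of 17 such neighbours that are no member and have a probe set of their own, 4 were lower (23.5%, against 8.84% of all probe sets), none was higher and 13 did not pass, with a median log2 fold change of -0.14. None of the 4 stands beside SWEET13, SWEET4 or SWEET2. The only neighbour of SWEET13 that was read is SWEET10, itself a member, so no non-member beside SWEET13 could be checked. SWEET4 had only AT3G28020 to read, and SWEET11 has no neighbour with a probe set that names it alone. EULS3, a lectin gene before SWEET9, changed by -0.92 on the log2 scale (adjusted p = 0.0130). DI21, a drought-induced gene before SWEET17, changed by -0.83 (adjusted p = 0.0242). AT4G15930, after SWEET17, had -0.49 (adjusted p = 0.0174). AT4G25020, after SWEET14, had -0.35 (adjusted p = 0.0496) and passed in 2 of 12 alternative settings. With 1 array left out the log2 fold changes kept their sign and a like size, while several arrays in turn cost the call. EULS3 ran from -1.06 to -0.80 and did not pass without p53-transgenic replicate 1 (-0.87, adjusted p = 0.0607) or WT replicate 3 (-0.91, adjusted p = 0.0609). DI21 did not pass without p53-transgenic replicate 1 (-0.80, adjusted p = 0.0930), WT replicate 1 (-0.81, adjusted p = 0.0913) or WT replicate 3 (-0.66, adjusted p = 0.0683). AT4G15930 ran from -0.56 to -0.44 and did not pass without p53-transgenic replicate 1 (-0.44, adjusted p = 0.0762), WT replicate 1 (-0.46, adjusted p = 0.0760), WT replicate 2 (-0.47, adjusted p = 0.0618) or WT replicate 3 (-0.52, adjusted p = 0.0517). AT4G25020 ran from -0.42 to -0.28 and passed only without p53-transgenic replicate 2, with adjusted p-values of 0.0727 to 0.163 without each of the other arrays. SWEET17 lay between a pair of lower genes, at -0.73 without passing itself. The neighbours of SWEET2 had 0.22 (AT3G14760) and -0.12 (AT3G14780), and AT3G28020 beside SWEET4 had 0.07. None of these 3 passed. AT5G50780, before SWEET10, had -0.36 (adjusted p = 0.105). For the 10 SWEETs that did not pass, the log2 fold changes ran from -0.73 to 0.11.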

How the data were processed

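Total RNA from 3 p53-transgenic and 3 WT seedling samples was labelled with the MessageAmp Premier kit and hybridized to the ATH1 array. The labels give TRIzol for the isolation of the RNA and the methods an RNeasy kit. PLIER stands in the submitters' processing notes, and GeneSpring in the methods. The authors deposited 1 log value per probe set and array, taken as log2, centred on the 6-array median of its probe set. The sources used here do not give the base of the log, the background correction or the normalization between arrays. Another base would scale the fold changes and could alter the counts that use a fold threshold, while p-values would not change. Without levels, signal over background could not be assessed for single probe sets. The study's quality summary gives a background average for each array and lists every array as outside bounds in its threshold test. The number of arrays limits the precision, and p-values cover the spread between these samples.

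Of 22810 probe sets, 64 controls were left out. Of the other 22746, 13513 name 1 gene in the platform annotation, 503 name several and 8730 have none listed. Names, chromosomes and gene order come from RefSeq TAIR10.1, matched by locus, and a list member whose listed symbol differed there was dropped. Genotypes were compared as p53 minus WT by lmFit and eBayes of limma 3.58.1 (R 4.3.3), without covariates and with Benjamini-Hochberg adjustment. The script was tested on simulated data. The methods' t-test is a 2-sample t test on the same values. The study states no adjustment for it and asks for an unadjusted p under 0.05 with more than a 2-fold change. Where an adjusted p of this test is given, the adjustment was added here. Pairs of members were compared with an exact permutation test over arrays.

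Same-numbered arrays deviated together from their genotype means (r = 0.12, 0.27 and 0.34 for replicates 1, 2 and 3 over 22746 probe sets). The labels do not say that a number marks an experiment, so the pairing comes from the data alone. The fit with the number as a block was an alternative.

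Named are every member, up to 4 genes of each list with the smallest p, up to 6 genes with sugar transport words in their reference name, the 5 closest to SWEET13 and SWEET4, and neighbours of members. TMT1, the fifth gene read of its list, and the count by locus alone were added after values were seen. The members and lists were chosen with earlier results of these data known. Other alternatives were quantile normalization, centring each array, eBayes with trend and robust options, only probe sets of 1 gene, and leaving out each array.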

Additional observations from a re-analysis of the deposited data

How the results depend on the processing

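SWEET13 and SWEET4 passed in all 12 alternatives, with adjusted p-values of 3.13e-06 to 0.0163 and 1.44e-05 to 0.0366. SWEET2 passed in 11 and SWEET11 in 10. The count of changed SWEETs, 4, was 2 with the methods' t-test after adjustment and 3 to 5 with 1 array left out, with 3 without WT replicate 3 and 5 without p53-transgenic replicate 2. Without adjustment and with the fold threshold of the study, the t-test passed 3 SWEETs and 1160 probe sets. The count over all probe sets, 3500, was 1411 with the adjusted t-test, 1933 when only the 13513 probe sets of 1 gene were tested, and 1621 to 4346 with 1 array left out. It was 1710 without p53-transgenic replicate 1, 1747 without WT replicate 1 and 1621 without WT replicate 3. The count of list genes, 3, was 1 with the adjusted t-test and 3 to 6 with 1 array left out, with 6 without p53-transgenic replicate 2. Matched by locus alone, 4 list genes passed. The unadjusted t-test and the match by locus were chosen after seeing the data. The replicate block gave 4 SWEETs, 3878 probe sets and 4 list genes. It changed the calls of AT1G68570, which then passed, and of AT4G25020, which then did not (adjusted p = 0.0740), and no other call of a named gene. The pairs of members without overlap, 58, were 58 to 71 with 1 array left out. EULS3, DI21 and AT4G15930 passed in 9, 8 and 7 of the alternatives. Over 59 named genes and 12 alternatives, 673 of 708 values kept their side of the threshold, 27 lost the call, 8 gained it and no called value reversed. A filter on low values could not be run on centred values. The cause of these shifts was not tested.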

Other observations

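AMY1, an alpha-amylase gene before SWEET14, differed more between replicate numbers than between genotypes, though no test of the number was run. Its values were -0.04, -0.92 and 0.24 in the p53-transgenic arrays of replicates 1, 2 and 3, against 0.04, -0.83 and 0.17 in the WT arrays. Replicate 2 was the lowest array of both genotypes, and the log2 fold change was -0.03 (adjusted p = 0.972).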
